A study of Mus musculus with 2 samples.

Results

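The 10 genes described here are the MHC class I heavy chain genes H2-K1, H2-D1, H2-Q4, H2-Q6, H2-Q7, H2-T22, H2-T23 and H2-M3, the light chain gene B2m, and Nlrc5, which encodes a transcriptional coactivator of class I genes. They were taken by name and matched by GENCODE M21 gene identifier, 10 of the 55536 annotated genes in the tables, together with their 50 annotated transcripts. The samples were 2 polyA plus RNA-seq libraries of mouse regulatory T cells, a lineage of CD4 T cells that depends on the transcription factor Foxp3 and keeps other lymphocytes in check. The labels make them technical replicates 1 and 2 of the same biological sample, primary cells from an adult male mouse 4 months old of the strain Foxp3CreERT2 x Rosa26YFP, which joins a Foxp3 allele that drives a tamoxifen-dependent Cre recombinase with a YFP reporter at Rosa26. The source label traces the cells to a hematopoietic cell of the bone marrow, and it gives neither a sort nor a gate, a treatment, or the H2 haplotype of the animal. The fragments were sheared to a size range of 100 to 300 bases. With 1 group there is no comparison of conditions, and the 2 libraries, called library 1 and library 2 by their technical replicate number, describe levels and the technical spread between them.

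Class I molecules display peptides from inside the cell to CD8 T cells and natural killer cells. In classical class I molecules a polymorphic heavy chain folds around the peptide and pairs with the invariant light chain beta-2 microglobulin. The classical pair mostly reaches the surface after peptide loading in the endoplasmic reticulum. H2-K1 and H2-D1 encode the classical heavy chains, and the Q, T and M genes encode nonclassical ones with narrower tasks. Nlrc5 binds no DNA itself and acts through factors that sit on a conserved promoter module, whose X2 box and Y box are bound by CREB/ATF proteins and NF-Y. Because the heavy chain genes arose by duplication, their transcripts share long stretches, and a short read can belong to several of them.

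The start of the second coding exon, which in H2-K1 encodes the beginning of the peptide-binding part, shows how the heavy chain genes differ from one another. The 60 bases below were read from GENCODE M21 transcripts (GRCm38, chromosome 17), and capitals mark bases that differ from H2-K1 at the same place. In H2-Q4 the annotated exon begins further upstream, and the stretch that matches H2-K1 best is shown.
H2-K1, chr17:33999944-34000003, minus strand: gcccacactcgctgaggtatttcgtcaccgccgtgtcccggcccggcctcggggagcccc
H2-D1, chr17:35263379-35263438, plus strand: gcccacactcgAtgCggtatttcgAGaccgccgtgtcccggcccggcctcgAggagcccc
H2-Q4, chr17:35379904-35379963, plus strand: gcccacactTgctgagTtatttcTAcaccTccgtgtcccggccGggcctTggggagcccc
H2-Q6, chr17:35425108-35425167, plus strand: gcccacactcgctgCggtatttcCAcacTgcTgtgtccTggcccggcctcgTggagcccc
H2-Q7, chr17:35439452-35439511, plus strand: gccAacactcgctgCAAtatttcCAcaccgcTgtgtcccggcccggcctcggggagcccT
H2-T22, chr17:36042069-36042128, minus strand: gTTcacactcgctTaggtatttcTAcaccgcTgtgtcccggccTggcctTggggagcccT
H2-T23, chr17:36032363-36032422, minus strand: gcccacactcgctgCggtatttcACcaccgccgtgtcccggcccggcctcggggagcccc
H2-M3, chr17:37270522-37270581, plus strand: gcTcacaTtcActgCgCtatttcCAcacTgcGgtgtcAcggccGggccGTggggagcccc
The number of differing bases ran from 3 in H2-T23 to 13 in H2-M3.

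The fourth coding exon, which encodes the membrane-proximal immunoglobulin-like domain, was more alike among them. Its identity with H2-K1 was 96.0% in H2-D1, 95.3% in H2-T23, 93.5% in H2-Q6, H2-Q7 and H2-T22, 92.8% in H2-Q4 and 84.8% in H2-M3. The third coding exon encodes the other part of the peptide-binding groove in H2-K1. Over it the same identities were 91.3% for H2-Q4, 88.0% for H2-D1, 86.6% for H2-Q7 and 86.2% for H2-Q6. They were 70.7% for H2-T23, 67.8% for H2-M3 and 65.4% for H2-T22. The gap between the exons was thus small in H2-Q4 and wide in H2-T22 and H2-T23. One 50-base stretch of the fourth coding exon, printed from H2-D1 at chr17:35265921-35265970 (GRCm38, plus strand), stands identically in 6 heavy chain members and is shown because a read from it cannot name its gene.
H2-D1 shared stretch: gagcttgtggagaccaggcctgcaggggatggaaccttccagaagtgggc
It occurs in H2-D1, H2-K1, H2-Q6, H2-Q7, H2-T22 and H2-T23, and in 9 further genes, among them H2-Q1, H2-Q5 and H2-T3. Over whole coding sequences, H2-Q6 and H2-Q7 were the closest pair of the 8 genes at 95.4% identity, and H2-K1 and H2-D1 were 91.5% identical.

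To give the promoters that Nlrc5 is known for, the RefSeq promoter table (GRCm38.p6, 250 bases before to 50 after each start) was searched on both strands for TGACG, 19 or 20 bases, then ATTGG, the core letters of the X2 and Y boxes. The table held 9 of the 10 genes. The pattern was found without a mismatch in H2-K1, H2-D1, H2-Q7, H2-M3 and B2m, 5 of the 9, against 37 of all 27018 promoters (0.137%). With 1 mismatch allowed among its 10 letters, H2-Q4 and H2-Q6 were added, and 1.95% of all promoters then held it. The pattern was chosen with the promoters in view, and the heavy chain promoters resemble one another by descent, so the shares are a description. Capitals below mark the matching letters of both blocks, on the strand of the gene.
H2-K1, chr17:34000359-34000388, minus strand: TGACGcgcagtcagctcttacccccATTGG
H2-D1, chr17:35262993-35263022, plus strand: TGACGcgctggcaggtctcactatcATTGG
H2-Q4, chr17:35379513-35379542, plus strand: TGACttactggcagttctcacccccATTGG
H2-Q6, chr17:35424747-35424775, plus strand: TGACctgtaacagttctcacccctATTGG
H2-Q7, chr17:35439091-35439119, plus strand: TGACGtgtaacagttctcacccctATTGG
H2-M3, chr17:37270188-37270217, plus strand: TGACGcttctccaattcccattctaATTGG
B2m, chr2:122147609-122147638, plus strand: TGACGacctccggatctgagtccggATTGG
The 7 stretches ended 11 to 74 bases before the listed start, and 2 of them overlap exons annotated by GENCODE, that of H2-D1 with H2-D1-202 and that of H2-Q4 with Gm11131-201. H2-T23 came within 2 mismatches, as did 23.1% of all promoters, and H2-T22 did not. TTTCACTT, the core of an interferon response element, stood in 7 of the 9 promoters (all but those of H2-T23 and B2m) and in 1.67% of all promoters. Binding was not measured.

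The library totals were 15821875 and 16153671 estimated counts on annotated genes. Where a library has 0 counts, up to 3 are allowed, which is 0.190 and 0.186 CPM (counts scaled to the library total), and such floors and the intervals below cover counting error only. All 8 regulatory T cell markers checked reached 1 TPM in each library, the limit used here for an expressed gene, with Foxp3 at 43.2 and 36.2 TPM. Of the marker lists of other cells, 5 of 6 CD8 T and NK cell genes were expressed, 2 of 6 B cell genes, 1 of 8 myeloid genes, 1 of 6 dendritic cell genes and 2 of 6 stroma and epithelium genes. Their summed levels in libraries 1 and 2 were 46.0 and 49.0 TPM for CD8 T and NK cells, 45.3 and 43.7 TPM for B cells, 6.40 and 4.42 TPM for myeloid cells, 3.24 and 4.33 TPM for dendritic cells, and 90.6 and 89.1 TPM for stroma and epithelium, where Pecam1 alone held 86.2 TPM. Itgax of the dendritic cell list and Pdgfrb of the stroma list had 0 counts in both libraries, while Zbtb46 of the former had 164 and 207 counts and Epcam of the latter 86 and 60. Gzmb stood at 25.2 and 25.9 TPM, Cd8b1 at 10.8 and 14.3 TPM, and the B cell gene Cd79b at 33.2 and 33.3 TPM. Nearly all nucleated cells express class I genes, and what such other cells add to the levels below was not tested. In bulk RNA, fewer cells of a type and less RNA per cell cannot be told apart.

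All 10 genes were expressed and lay above 5 TPM in each library, where 24.3% of all annotated genes were expressed. TPM is a gene's share of all transcripts after division by length, scaled to a fixed total. Their median level was 477.9 TPM in library 1 and 489.4 TPM in library 2, beside a median of 18.5 TPM over the 10251 expressed protein-coding genes. Of these 10, H2-Q4 alone lay below that median. Together they held 1.62% of estimated counts in library 1 (95% exact Clopper-Pearson interval 1.61 to 1.62) and 1.65% in library 2 (1.64 to 1.66).

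B2m (ENSMUSG00000060802.8, chr2:122147686-122153083, plus strand), the light chain that every class I heavy chain needs, had 66322 and 73465 estimated counts. Its level was 6577 TPM in library 1 and 6948 TPM in library 2, the highest of the 10 and rank 11 of all annotated genes.

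Of the classical heavy chains, H2-K1 (ENSMUSG00000061232.16, chr17:33996017-34000347, minus strand) stood at 4060 and 4011 TPM, from 55560 and 57575 counts. H2-D1 (ENSMUSG00000073411.11, chr17:35262730-35267499, plus strand) stood at 3448 and 3284 TPM, from 80782 and 80451 counts. They ranked 29 and 35 among all genes. H2-K1 was the higher by TPM in both libraries while H2-D1 had more counts, because the length that TPM divides by was 1100 bases for H2-K1 and 1884 bases for H2-D1 in library 1.

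Among the nonclassical heavy chains, H2-Q7 (ENSMUSG00000060550.16, chr17:35439155-35443773, plus strand), one of the Qa-2 genes, was highest at 808.7 and 786.6 TPM. Its neighbour H2-Q6 (ENSMUSG00000073409.12, chr17:35424850-35430055, plus strand), a gene of the same Qa-2 group, had 379.4 and 362.7 TPM. H2-T23 (ENSMUSG00000067212.8, chr17:36029773-36032855, minus strand), which encodes Qa-1 and presents leader peptides of other class I molecules to NKG2 receptors, had 576.4 and 616.1 TPM. All 3 lay far above the median expressed protein-coding gene.

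H2-T22 (ENSMUSG00000056116.18, chr17:36037128-36042747, minus strand), a ligand of some gamma delta T cell receptors, had 278.3 and 302.7 TPM. H2-M3 (ENSMUSG00000016206.6, chr17:37270220-37274484, plus strand), which presents N-formylated bacterial and mitochondrial peptides, had 96.1 and 97.5 TPM. H2-Q4 (ENSMUSG00000035929.11, chr17:35379617-35385290, plus strand) was lowest at 11.9 and 10.4 TPM, from 376 and 344 counts. The nonclassical genes therefore spread over a wider range than the classical pair.

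Nlrc5 (ENSMUSG00000074151.13, chr8:94434356-94527272, plus strand), the class I coactivator, had 149.0 and 138.4 TPM, from 4994 and 4450 counts, and ranked 947. Ciita, its relative for class II genes, was at 0.61 and 0.60 TPM, from 30.5 and 33 counts. The TPM ratio of Nlrc5 to Ciita was 244 in library 1 and 231 in library 2. With the length of each gene's longest protein-coding transcript in place of the assigned length, the ratio was 130 and 107, and Nlrc5 ranked 2038.

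**Figure D1:**
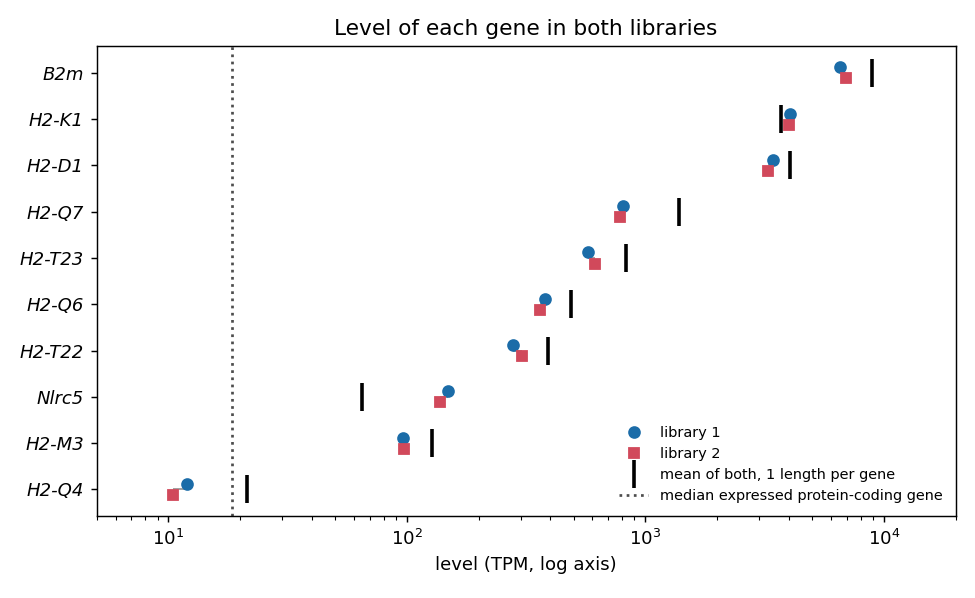
Level of each of the 10 genes in TPM on a log axis, with a circle for library 1, a square for library 2, a black bar for the mean of both when every gene has 1 fixed length, and a dotted line at the median expressed protein-coding gene (18.5 TPM). The libraries lie close together for every gene, B2m is highest at 6577 and 6948 TPM and H2-Q4 lowest at 11.9 and 10.4 TPM, and the fixed length moves Nlrc5 below H2-M3.

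By deposited TPM the order was B2m, H2-K1, H2-D1, H2-Q7, H2-T23, H2-Q6, H2-T22, Nlrc5, H2-M3 and H2-Q4, and the libraries of no 2 neighbours in it overlapped. The smallest steps were H2-K1 over H2-D1 at 1.20-fold, H2-Q6 over H2-T22 at 1.28-fold and H2-Q7 over H2-T23 at 1.34-fold. Since the length behind a gene's TPM follows the transcripts its reads were assigned to, the order was recomputed with the length of the longest protein-coding transcript of each gene, an alternative chosen after the data were seen. H2-K1 then fell below H2-D1 in both libraries, with a ratio of 0.899 in library 1 and 0.936 in library 2. Nlrc5 went to 65.0 TPM, below H2-M3 at 127 TPM. H2-Q4 went from 11.2 to 21.4 TPM. The other steps kept their direction. The deposited credibility bounds, which belong to the posterior mean of TPM and whose level the headers do not give, ran in library 1 from 3562 to 3683 for H2-K1 and from 3039 to 3097 for H2-D1. For Nlrc5 they ran from 127.1 to 140.5 and for H2-M3 from 81.5 to 89.7. The bounds of these pairs did not overlap, but they assume the annotated transcripts.

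The 8 heavy chain genes summed to 9659 TPM in library 1 and 9471 TPM in library 2. H2-K1 and H2-D1 together made up 77.4 ± 0.50% of that sum (SD, n = 2 technical libraries), H2-K1 42.2 ± 0.22% and H2-D1 35.2 ± 0.72%. The 6 nonclassical genes made up the remaining 22.6 ± 0.50%. With 1 length per gene the shares were 33.8 ± 0.27% for H2-K1, 36.8 ± 0.74% for H2-D1 and 29.4 ± 0.48% for the nonclassical genes, so which classical gene was the larger depended on the length used. The heavy chain sum was 1.47 times the level of B2m in library 1 and 1.36 times in library 2, and 1.29 and 1.19 times with 1 length per gene. This sum and the shares count all transcript types, retained-intron ones included. Protein-coding transcripts alone held 2493 TPM in H2-K1 and 3277 TPM in H2-D1 (means of both libraries). By a pattern of H2 symbols, 22 other genes of the annotation were taken as class I. They added 417.9 and 414.5 TPM, or 4.17 ± 0.03% of the TPM of these and the 8 heavy chain genes. Genes outside that pattern that share windows with the heavy chain genes, such as Gm8909, Gm11127 and Gm7030, were left out of this sum.

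Those 22 other genes were mostly low: 8 were expressed and 7 had 0 counts in both libraries. H2-Q5, annotated as a polymorphic pseudogene, had 206.4 and 212.7 TPM, and H2-T10, the close relative of H2-T22, had 68.0 and 61.0 TPM. The pseudogene H2-K2 had 52.8 and 48.1 TPM, H2-T-ps 34.6 and 40.4 TPM, and H2-T24 26.7 and 23.2 TPM. H2-Q10, whose product is known as a secreted class I molecule of the liver, had 17.4 and 17.6 TPM, H2-Q2 8.33 and 8.05 TPM, and H2-Bl 1.32 and 1.73 TPM. Whether these reads came from the named genes or from members that share sequence with them was not tested.

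How far reads could be told apart was described by cutting each gene's annotated transcripts into all windows of 50 bases and counting those found in transcripts of another gene. B2m had 0 of 811 windows in common with another gene, Nlrc5 0 of 8568, and H2-M3 8 of 1389 (0.576%). For the other heavy chains the share was 9.63% in H2-K1, 12.8% in H2-D1, 13.6% in H2-T23, 21.8% in H2-Q4, 26.4% in H2-Q7, 32.0% in H2-Q6 and 34.5% in H2-T22. These shares pool all annotated transcripts of a gene, and single transcripts could differ from them. In the protein-coding transcript with the most TPM, the share was 28.8% in H2-T23-201, 40.2% in H2-Q7-201 and 46.4% in H2-T22-202. The share was 14.3% in H2-D1-202 and 24.3% in H2-Q4-201, unchanged in H2-Q6-202, and lower in H2-K1-201 at 8.79%. H2-T23 thus stood further from H2-D1 than the pooled shares show. The 3 genes without or nearly without shared windows are known most directly, and the Q and T genes least.

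The largest overlaps were between particular pairs. H2-T22 had 1124 windows in common with H2-T10, 31.2% of its own and 31.7% of those of H2-T10. H2-Q7 had 631 windows in common with H2-Q10, 14.0% of each gene's windows, and 393 with H2-Q5, which were 25.5% of the windows of H2-Q5 and 8.74% of its own. H2-Q6 and H2-Q7 had 284 in common, 13.9% of those of H2-Q6 and 6.31% of those of H2-Q7. H2-Q6 and H2-Q4 had 251 in common, 12.3% and 9.68% of their windows. H2-T23 had 183 in common with H2-T-ps, 6.05% of its own and 18.0% of those of H2-T-ps. H2-K1 had its largest overlap with H2-Q10, 179 windows that were 5.18% and 3.97% of theirs, and H2-D1 with H2-Q1, 152 windows that were 5.87% and 5.02%. H2-K1 and H2-D1 had 141 in common with each other, 4.08% and 5.44% of their windows.

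**Figure D2:**
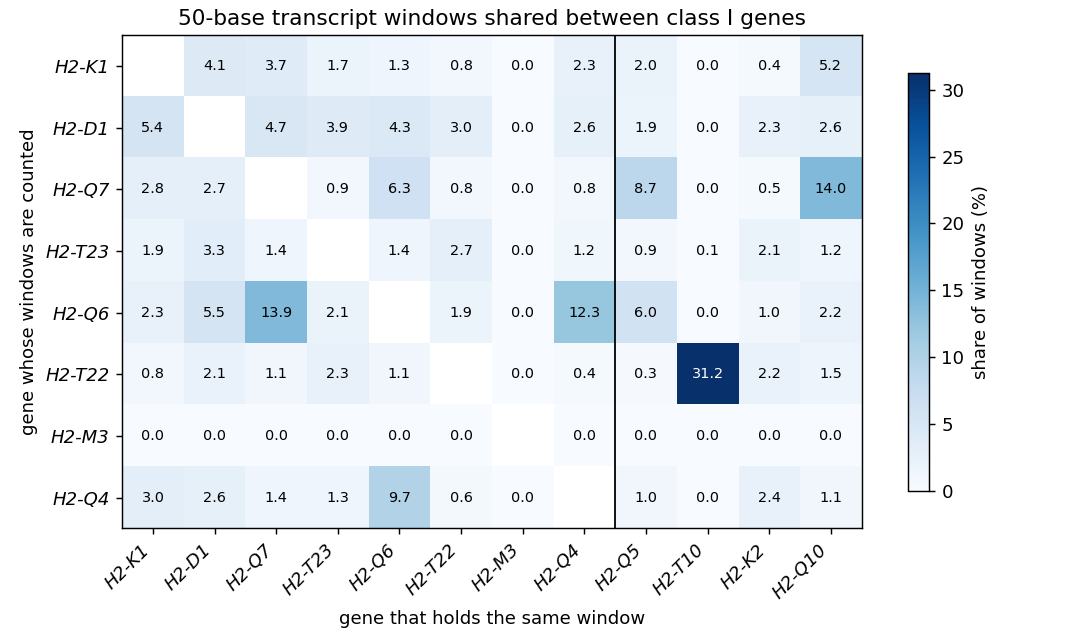
Share of the 50-base transcript windows of each heavy chain gene (rows) that also occur in another class I gene (columns), in percent, with darker blue for a larger share, and 4 genes outside the set right of the vertical line. The darkest cell is H2-T22 with H2-T10 at 31.2%, followed by H2-Q7 with H2-Q10 at 14.0% and H2-Q6 with H2-Q7 at 13.9%, and the H2-M3 row is at 0.

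The deposited tables give a posterior SD of each gene's count, which describes how uncertain the assignment of reads to the gene was. It was 0 for B2m and Nlrc5 and 1.25 counts for H2-M3 in library 1. It was 55.8 counts of 55560 for H2-K1, 71.4 of 80782 for H2-D1, 60.7 of 19711 for H2-Q7, 36.4 of 9604 for H2-Q6, 34.7 of 10791 for H2-T23, 34.3 of 6049 for H2-T22 and 10.9 of 376 for H2-Q4. Relative to the count, H2-Q4 was therefore the least certain. This SD holds only where the annotated sequences are those of the animal, and a haplotype that differs from the reference was not tested. The TPM ratio of H2-Q7 to H2-Q6 was 2.13 in library 1 and 2.17 in library 2, and that of H2-T22 to H2-T10 was 4.09 and 4.97.

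The transcript tables divide each gene's level among its annotated transcripts. In B2m and H2-M3, which have 1 annotated transcript each, and in H2-Q6, whose H2-Q6-202 took 100% in both libraries, there was nothing to divide. H2-D1-202, a protein-coding transcript of 2102 bases, held 89.6 and 89.3% of the TPM of H2-D1. H2-T23-201 held 87.0 and 88.5% of that of H2-T23. H2-T22 was divided between 2 protein-coding transcripts, H2-T22-202 with 55.2 and 56.4% and H2-T22-203 with 38.3 and 34.4%.

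H2-K1 was spread more widely, over 16 annotated transcripts. H2-K1-201, protein coding and 1619 bases long, led with 25.6 and 26.2%, and H2-K1-205, also protein coding, had 19.4 and 19.6%. The retained-intron transcript H2-K1-215 (457 bases) had 13.2 and 14.2%, and H2-K1-207 (1014 bases), of the same type, had 12.9 and 12.9%. Protein-coding H2-K1-211 had 12.4 and 12.3%. Protein-coding transcripts summed to 61.8 ± 0.04% of the TPM of H2-K1 and to 76.2 ± 0.18% of its counts.

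In H2-Q7 the protein-coding transcripts H2-Q7-201 (26.8 and 25.7% of TPM) and H2-Q7-204 (25.3 and 22.8%) stood beside the retained-intron transcripts H2-Q7-206 (24.4 and 23.5%) and H2-Q7-205 (21.5 and 25.4%). By counts H2-Q7-206, of 4209 bases, led with 51.8 and 50.6%. H2-Q4 was assigned almost wholly to the retained-intron transcript H2-Q4-202, with 98.9 and 98.8% of its TPM. Its protein-coding transcripts had 0.13 TPM in each library, so the level of H2-Q4 given above is not a level of coding transcript.

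Nlrc5 differed most between the measures. The retained-intron transcript Nlrc5-203, of 1727 bases, held 55.4% of the gene's TPM in library 1 and 64.6% in library 2. Nlrc5-207, the protein-coding transcript of 7578 bases, held 21.2 and 16.6%, and the processed transcript Nlrc5-208, of 557 bases, 14.6 and 9.12%. By estimated counts Nlrc5-207 led, with 2956 and 2252 counts against 1723 and 1956 for Nlrc5-203. Protein-coding transcripts of Nlrc5 had 20.1 ± 3.42% of its TPM, or 29.1 ± 6.43 TPM, and 57.1 ± 6.21% of its counts.

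**Figure D3:**
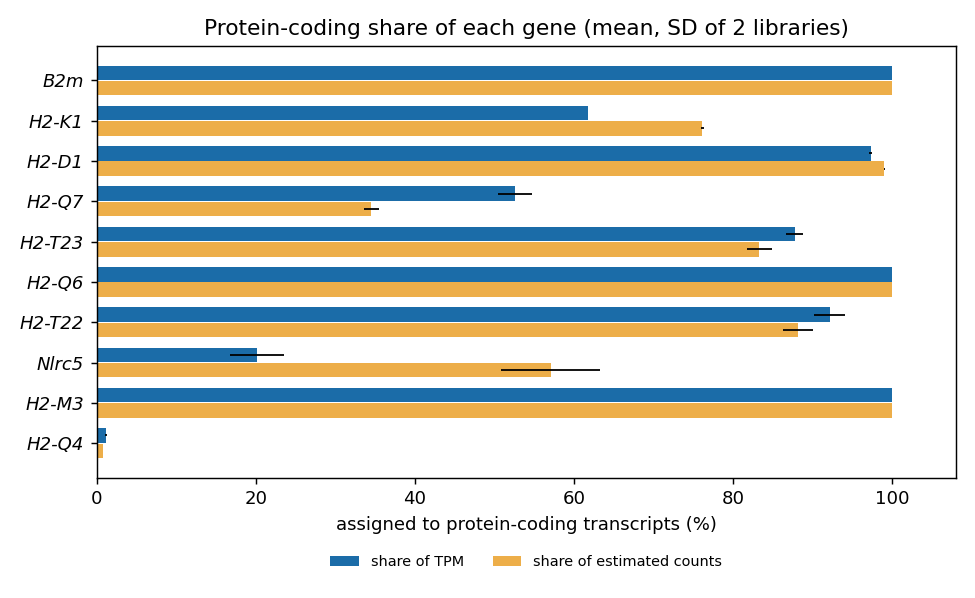
Share of each gene that was assigned to protein-coding transcripts, in percent, as bars from 0 for TPM (blue) and estimated counts (yellow), mean of 2 libraries with their SD as the error bar. B2m, H2-Q6 and H2-M3 are at 100%, H2-Q4 is near 0, and Nlrc5 has 20.1% of TPM but 57.1% of counts.

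Gene by gene, the counts of both libraries were set against each other in an exact binomial test (two-sided), scaled by TMM and adjusted by the Benjamini-Hochberg method over the 17458 genes whose counts summed to at least 10. Its p-values measure only the spread between these 2 technical libraries, beyond counting error, and no condition. It called 5 of the 10 genes, where it called 4384 of all genes tested (25.1%) and 34.2% of the 7639 genes whose counts summed to at least 500. Of the 5, 3 were higher in library 2 (11.8% of all genes tested) and 2 were higher in library 1 (13.4%). The median log2 ratio of library 2 over library 1 was -0.00 over the 10 genes and -0.00 over all genes tested.

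The called genes that were higher in library 2 were B2m, by 0.12 on the log2 scale (adjusted p = 1.43e-48, exact binomial test), H2-T22, by 0.16 (adjusted p = 2.22e-08), and H2-T23, by 0.12 (adjusted p = 1.35e-08). The test takes the assigned counts as observed. H2-T22 has 31.2% of its windows in common with H2-T10, and their TPM ratio was 4.09 in library 1 and 4.97 in library 2. Whether shared reads moved between these genes was not tested. The log2 ratio was -0.20 for Nlrc5 (adjusted p = 1.80e-09, exact binomial test) and -0.04 for H2-D1 (adjusted p = 6.21e-06), both higher in library 1. H2-K1 had a log2 ratio of 0.02 (adjusted p = 0.0671, exact binomial test), H2-Q7 of -0.02, H2-Q6 of -0.03, H2-M3 of 0.06 and H2-Q4 of -0.16, and these 5 did not pass. None of the 10 differed by 1.5-fold or more, where 8.80% of all genes tested did and passed the test. Among expressed protein-coding genes, a closer match to the 10, it was 411 of 10250 tested. With the variation beyond counting error set to that of all genes, a coefficient of variation of 13.0%, the edgeR exact test called none of the 10 and 349 of all genes (2.00%). That variation was estimated from these same 2 libraries. With ratios as small as those of the 10 genes, this test could hardly have called any of them.

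**Figure D4:**
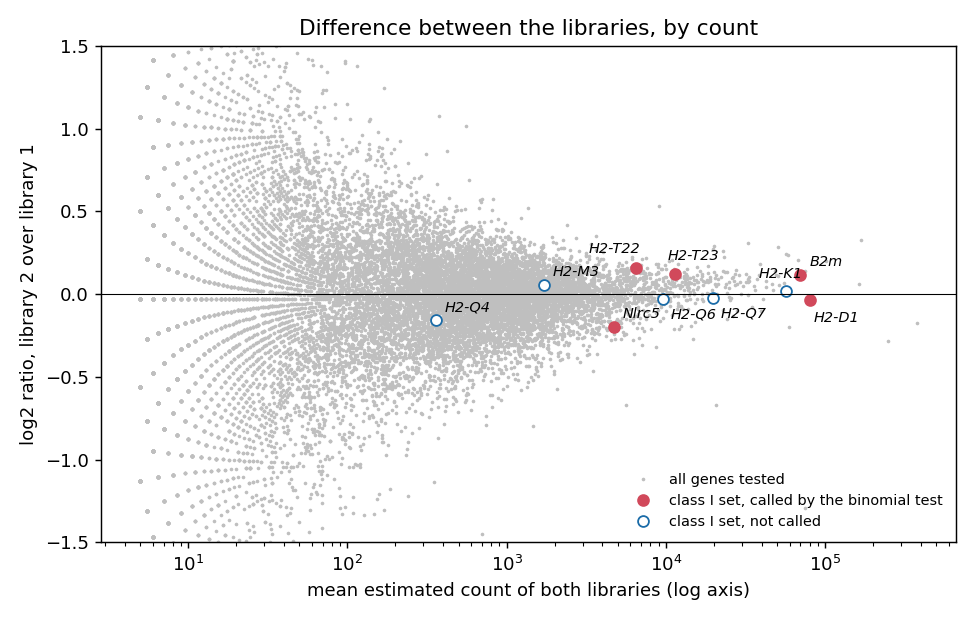
Log2 ratio of library 2 over library 1 against the mean estimated count (log axis), with grey points for the genes tested that lie within 1.5 of 0 and large points for the 10 genes, filled where the exact binomial test called them. The 10 genes lie between -0.20 (Nlrc5) and 0.16 (H2-T22), inside the range of other genes of like count.

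The genes that prepare peptides for class I were present throughout. All 10 peptide loading genes were expressed, and their median level was 98.4 TPM. Pdia3, the oxidoreductase of the loading complex, was highest at 635.3 and 639.3 TPM, and Uggt1, a sensor of folding, lowest at 19.8 and 16.9 TPM. The exact binomial test called 5 of them, where it called 25.1% of all genes tested, and all 5 were higher in library 1 (13.4% of all genes): the peptide transporter genes Tap1 and Tap2, the tapasin gene Tapbp, the trimming peptidase gene Erap1 and the glucosidase gene Ganab. Their log2 ratios ran from -0.35 in Tap2 to -0.11 in Tap1, and none reached 1.5-fold. The edgeR exact test with common dispersion called 0 of the 10, as it did in each of the other lists below.

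All 5 immunoproteasome genes, whose products cut proteins into peptides suited to class I, were expressed at a median level of 482.6 TPM. Psme2, a subunit of the proteasome activator, was highest at 581.3 and 652.2 TPM, and the catalytic subunit gene Psmb9 lowest at 197.9 and 208.5 TPM. The exact binomial test called 3 of them, Psmb10, Psme1 and Psme2, all higher in library 2 (11.8% of all genes tested), with log2 ratios of 0.11, 0.13 and 0.14.

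Of 14 genes for factors of class I transcription other than Nlrc5, 13 were expressed, all but Ciita, with a median of 49.3 TPM over the 14. Ciita was the lowest of them. The RFX genes, whose products bind the X1 box with Nlrc5, stood at 9.35 and 8.14 TPM for Rfx5, 48.0 and 49.9 TPM for Rfxank, and 3.54 and 4.76 TPM for Rfxap. Nlrc5 was thus above all 3 of its RFX partners by deposited gene TPM. Most of that Nlrc5 total was assigned to a retained-intron transcript. Its protein-coding transcripts held 29.1 TPM (mean of both libraries), below the gene level of Rfxank. The transcripts of the RFX genes are not described here. Of the 14, the exact binomial test called 3, where it called 25.1% of all genes tested. All 3 were higher in library 1 (13.4% of all genes tested). Among them were Creb1 and Atf1, which encode proteins that bind the X2 box, with log2 ratios of -0.13 and -0.24.

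Class I-like genes outside the H2 region were lower, and 6 of 12 were expressed. Cd1d1, which presents lipids to NKT cells, was highest at 98.7 and 98.7 TPM, close to H2-M3, and Azgp1 had 0 counts in both libraries. Of the 9 that could be tested, the exact binomial test called 1, where it called 25.1% of all genes tested. This was Raet1e, an NKG2D ligand gene, with 10.2 counts in library 1 and 0 in library 2, where 0 allows up to 3. Among the 22 other H2 genes, 10 could be tested and 2 were called, beside the same 25.1% of all genes tested. These were H2-T-ps, higher in library 2 by 0.26 on the log2 scale, and H2-T3, with 24.7 and 8.24 counts.

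The smaller gene tables, whole-number counts from another alignment and the GENCODE M4 annotation, held all 10 genes at lower values. Over all 11228 genes in both tables with an estimated count of 10 or more, the count there was a median of 39.9% of the estimated count. For H2-M3 it was 50.7% in library 1 and 53.4% in library 2, and for Nlrc5 48.6 and 44.0%. For H2-Q4 it was 20.5 and 24.1%, for H2-T22 17.4 and 15.8%, for H2-T23 14.5 and 12.8%, and for H2-Q6 9.60 and 9.43%. It was 4.83 and 4.69% for H2-Q7, 4.19 and 4.03% for H2-K1, 2.43 and 2.43% for H2-D1, and 1.35 and 1.23% for B2m.

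This share was lower for genes with high counts in general. Its median was 43.0% for genes with 100 to 1000 estimated counts, 35.1% for 1000 to 10000 and 4.69% for the 182 genes above 10000. No gene had more than 1.97 counts per base of its reference transcript in these tables, and the highest of the 10, H2-K1, had 1.44. B2m, which shares no window with another gene, had 1.04 counts per base, from 894 and 903 counts. How the counts were made is not given in the sources used here, and no cause of the lower share was tested. Ordered by these counts per base, H2-K1 was followed by H2-T23 at 1.05, B2m at 1.04 and H2-D1 at 0.932, so B2m was not the highest there.

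**Figure D5:**
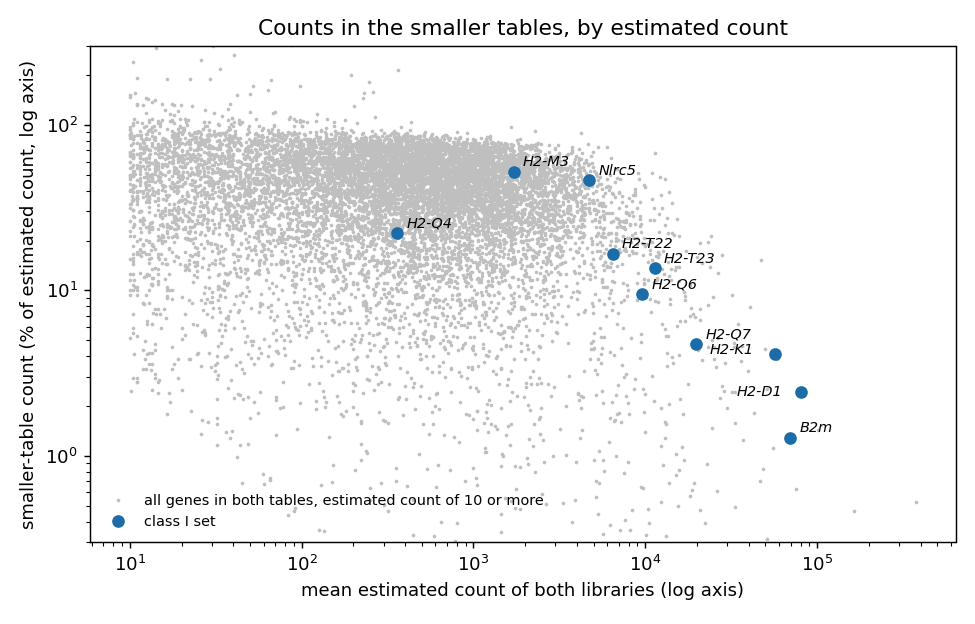
Count in the smaller tables as a percent of the estimated count against the mean estimated count, both on log axes, with grey points for all genes and blue points for the 10 genes, each the mean of 2 libraries. The share goes down toward high counts for genes in general, and the 10 genes run from 52.0% for H2-M3 to 1.29% for B2m.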

How the data were processed

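The data are 2 technical RNA-seq libraries of 1 sample. The members and gene lists were chosen with earlier results of these data known. The deposited larger gene and transcript tables (mm10, GENCODE M21) carry RSEM column names; the aligner and all versions are not stated there. Estimated counts (expected counts) and TPM are the authors' values, TPM both as maximum likelihood values (used) and as posterior means (an alternative). Per the file headers, the tables also hold the percent of a gene's TPM per transcript, a posterior SD of the count, and credibility bounds of TPM (a signal column). Effective lengths were 49 bases below transcript lengths throughout, so the model used fragments of 50 bases. The labels give a size range of 100 to 300 bases. The alternative of 1 length per gene kept the difference of 49 bases. Longer fragments in the model would change TPM most for short transcripts, and that effect was not tested. The deposited smaller tables hold raw counts per gene (GENCODE M4, 3746426 and 3680387 counts); their counting rule is not given.

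Symbols and positions came from GENCODE M21, promoters from RefSeq (GRCm38.p6). Genes reaching 1 TPM in each library were called expressed. Estimated counts were rounded for an exact two-sided binomial test (summed count 10 or more, TMM sizes from edgeR 4.0.16, Benjamini-Hochberg at 0.05, prior count 0.5). It was checked only on simulated Poisson counts. These hold no variation beyond counting error, so the check does not cover such variation between the libraries. DESeq2 1.42.0 size factors and the edgeR exact test were alternatives, others being a 5 TPM limit, other count minimums, posterior means, the smaller tables and 1 length per gene. Windows were compared on the transcript strand. Python 3.11.15, scipy 1.17.1 and R 4.3.3 were used. Named are the 10 genes, in each list the highest and lowest gene and those called with 1.5-fold, other H2 genes at 1 TPM or more or sharing 10% of a member's windows, and transcripts with 10% of a member's TPM; further names were chosen after their values were seen, and some list genes are not reported here. Intervals are exact Clopper-Pearson at 95%.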

Additional observations from a re-analysis of the deposited data

How the results depend on the processing

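No paired analysis was possible because all samples form 1 group. Between-library results cannot be recomputed without a library. Of 63 alternatives tried on 14 summary results, 53 left a value within its limit or a count within 1.5 times. The limit was the SD of both libraries, the 13.0% variation of all genes for log2 ratios, and an exact interval for shared windows. Leaving out a library cannot move a value beyond that SD, since 1 library differs from the mean of both by less. With all 10 genes expressed, a limit of any count above 0 could change nothing. The outcome of those alternatives was thus fixed, and 53 is no measure of how stable the results are. The median level of the 10 genes was 483.7 TPM, 431.7 as posterior mean, 596.3 with H2-Q6 and H2-Q7 added up, and 657.8 with 1 length per gene. The ratio of heavy chains to B2m went from 1.42 to 1.24 with 1 length per gene. The share of counts went from 1.63% to 0.346% in the smaller tables. The 5 calls between libraries became 1 in the smaller tables, 0 with a 1.5-fold limit and 0 with the edgeR exact test, and 6 with total counts. The edgeR test took its variation from the same 2 libraries, which makes its 0 no independent result. Shared windows over all 10 genes went from 14.5% at 50 bases to 7.39% at 75 and 4.20% at 100. With 1 length per gene, H2-K1 over H2-D1 reversed from 1.20 to 0.917 and Nlrc5 over H2-M3 from 1.48 to 0.510. In the smaller tables the log2 ratio of H2-D1 was 0.0031 and that of H2-T23 -0.025, opposite in sign to the main values and not called. Counts per base stay low in those tables even for the most abundant genes, and whether this bears on the ratios of H2-D1 and H2-T23 was not tested. The direction of these 2 genes thus depended on the tables used. The single call in the smaller tables was Nlrc5, with a log2 ratio of -0.30 against -0.20 in the main test, and with 0.29 counts per base. With DESeq2 size factors H2-D1 was not called (adjusted p = 0.153, exact binomial test) and H2-K1 was (adjusted p = 9.06e-06). These factors, computed without a filter on counts, were 0.997 and 1.003, nearer to each other than the TMM sizes of 15815326 and 16160131. Which scaling is the better was not tested. The protein-coding transcript led in 8 of 10 genes by TPM and by counts, but not the same 8: H2-Q7 by TPM only and Nlrc5 by counts only. Causes were not tested. Depth limits H2-Q4 most, with 376 and 344 counts.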
